A study of Mus musculus with 6 samples.

Results

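A set of 10 chaperone genes was followed in the prefrontal cortex of Cyfip2 mutant mice: Hspa1a, Hspa1b, Hspb1, Dnajb1, Hsph1, Hsp90aa1, Hspa8, Hsp90ab1, Hspa5 and Hsp90b1. They were taken by symbol from the deposited table of normalized counts, and all 10 were found among its 18160 genes. The cortex came from C57BL/6J mice at postnatal day 56, and RNA was sequenced in 6 samples, 3 of wild-type and 3 of Cyfip2 heterozygous genotype. Cyfip2 encodes a subunit of the actin-regulating WAVE complex. The labels do not describe the allele, nor do they tie samples to separate animals, so the p-values measure only the spread between these samples. Cyfip2 was at 45454, 43174 and 45627 normalized counts in wild-type samples 1, 2 and 3 and at 28356, 28578 and 29567 in heterozygous samples 1, 2 and 3. The genotypes did not overlap, and heterozygotes were at 64.4% of wild type (adjusted p = 0.0027 by limma-trend), so the targeted gene went with the labels.

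Chaperones bind unfolded or partly folded proteins, and many of them, such as HSP70 and HSP90, release them in cycles driven by ATP. Under heat or other proteotoxic stress, the transcription factor HSF1 binds heat shock elements, repeats of the letters GAA in alternating orientation, and switches on the inducible genes. Chaperones of the endoplasmic reticulum (ER) are instead raised by the unfolded protein response, which acts on the ER stress element. Neurons hold large amounts of the constitutive chaperones, whose tasks include uncoating clathrin vesicles and folding kinases and steroid receptors. Hspa1a, Hspa1b, Hspb1, Dnajb1, Hsph1 and Hsp90aa1 are treated here as the 6 inducible genes. Hspa8, Hsp90ab1, Hspa5 and Hsp90b1 are the 4 constitutive ones, the last pair in the ER.

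The upstream sequences are shown for the near identity of the HSP70 pair and for the different elements of 3 inducible genes and the ER pair. RefSeq (GRCm38.p6) gave promoter entries for 7 of the 10 genes, all but Hsp90aa1, Hspa8 and Hsp90ab1. The 250 bases before the start of 5 of them are printed 5′ to 3′. Capitals mark a pair of heat shock element units (GAANNTTC or TTCNNGAA, each its own reverse complement) or the ER stress element (CCAAT and CCACG with 9 bases between them, searched on both strands).
Hspa1a (chr17:34972157-34972406, minus strand): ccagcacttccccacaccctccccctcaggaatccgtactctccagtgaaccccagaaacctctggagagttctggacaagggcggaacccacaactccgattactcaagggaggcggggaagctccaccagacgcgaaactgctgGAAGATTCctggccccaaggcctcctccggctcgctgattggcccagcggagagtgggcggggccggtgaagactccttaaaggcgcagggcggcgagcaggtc
Hspa1b (chr17:34959239-34959488, minus strand): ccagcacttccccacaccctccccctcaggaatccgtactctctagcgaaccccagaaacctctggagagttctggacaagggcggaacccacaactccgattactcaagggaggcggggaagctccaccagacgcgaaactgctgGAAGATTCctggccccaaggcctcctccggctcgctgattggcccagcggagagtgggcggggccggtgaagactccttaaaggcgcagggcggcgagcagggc
Hspb1 (chr5:135887669-135887918, plus strand): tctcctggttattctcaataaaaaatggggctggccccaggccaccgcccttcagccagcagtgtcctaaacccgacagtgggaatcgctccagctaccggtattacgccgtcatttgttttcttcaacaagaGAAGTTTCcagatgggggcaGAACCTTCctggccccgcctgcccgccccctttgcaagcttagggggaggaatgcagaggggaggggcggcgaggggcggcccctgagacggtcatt
Hspa5 (chr2:34771840-34772089, plus strand): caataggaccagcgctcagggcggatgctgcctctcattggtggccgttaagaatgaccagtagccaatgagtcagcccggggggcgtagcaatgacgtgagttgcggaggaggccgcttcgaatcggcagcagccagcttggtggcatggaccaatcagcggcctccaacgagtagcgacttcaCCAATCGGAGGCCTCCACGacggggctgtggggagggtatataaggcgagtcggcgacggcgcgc
Hsp90b1 (chr10:86705445-86705694, minus strand): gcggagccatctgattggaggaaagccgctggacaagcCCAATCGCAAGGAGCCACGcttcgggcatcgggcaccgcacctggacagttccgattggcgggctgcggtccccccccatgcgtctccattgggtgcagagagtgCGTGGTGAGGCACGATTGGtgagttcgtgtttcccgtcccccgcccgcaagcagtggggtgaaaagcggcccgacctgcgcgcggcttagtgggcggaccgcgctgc
Hspa1a and Hspa1b were identical at 247 of 250 positions, with their unit pair, GAAGATTC, starting 104 bases before the start site in both. Counted from 1 at the 5′ end of these windows, with the base of Hspa1a first, the substitutions were C44T, T47C and T249G. Hspb1 held GAAGTTTC and GAACCTTC, 117 and 97 bases upstream. Hsph1, not printed, held TTCTCGAA in the windows of both its start sites. Neither window of Dnajb1 held a match, but the window at chr8:83608298-83608547 lies inside the annotated gene. Of 32851 promoter windows of this length, 12.8% held at least 1 such unit pair. The ER stress element was far rarer, in 0.113% of windows, and stood once in Hspa5 and at 2 places in Hsp90b1, once on each strand. Neither ER gene held a unit pair and none of the inducible genes with an entry held the ER element. These matches are letters, not measured binding.

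Sequence shared with other genes limits which values can be trusted for a single gene. Hspa1a (chromosome 17, 34969190 to 34972156, GRCm38) and Hspa1b (chromosome 17, 34956436 to 34959238) lie 9952 bases apart on the minus strand, and their coding sequences were 99.4% identical. Of all stretches of 31 bases in the Hspa1a transcript, 63.8% also occurred in Hspa1b, and 12.1% in the neighbouring Hspa1l. Processed pseudogenes shared 74.3% of the Hspa8 transcript (Gm15459) and 57.0% of the Hsp90aa1 transcript (Gm12346), but their own values were small beside those of their parent genes. Gm15459 was at 41.9 to 62.3 normalized counts and Gm12346 at 22.3 to 68.1. For Hspb1, 61.7% was shared with the pseudogene Hsp25-ps1, which has no row in the table. Dnajb1, Hsph1 and Hspa5 shared less than 1% with any transcripts and are the best resolved of the 10.

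Among the 10 genes a constitutive pair ranked highest, with inducible and constitutive genes mixed below it. Per kilobase of transcript, Hspa8, the HSP70 that uncoats clathrin vesicles, was highest, with a mean of 28592 normalized counts per kb. Hsp90ab1, the constitutive cytosolic HSP90, followed at 16198 per kb, and Hsp90aa1, its stress-inducible partner, at 10369 per kb. All 3 stood above the 99th percentile of 14637 genes with a known length and a mean of at least 10, at 99.8, 99.6 and 99.2. Next came Hsp90b1, the HSP90 of the ER, at 3584 per kb, Hsph1, a nucleotide exchange factor for HSP70, at 2642 per kb, and Hspa5, the ER HSP70 also called BiP, at 1990 per kb. Dnajb1, the J-domain protein that stimulates HSP70, was at 735 per kb. The small heat shock protein gene Hspb1 was at 234 per kb, and Hspa1b and Hspa1a at 190 and 189 per kb, below the median of those 14637 genes. Hspa8 was thus at 151 times the level of Hspa1a per kb. The 6 samples of neighbouring genes in this order did not overlap from Dnajb1 upward, whereas Hspb1 (198 to 277 per kb), Hspa1b (159 to 244) and Hspa1a (168 to 215) overlapped.

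**Figure D1:**
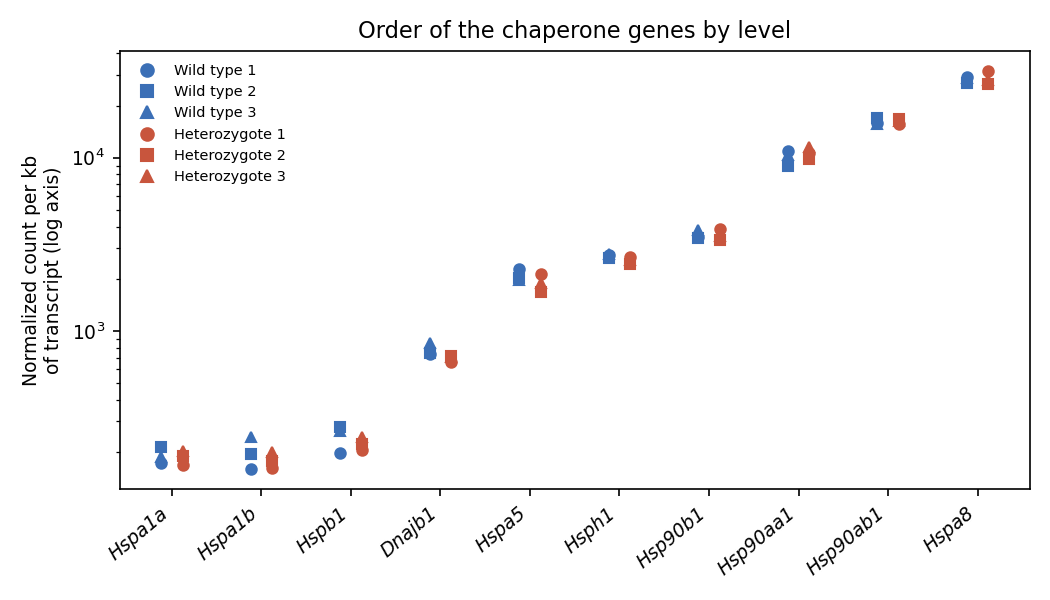
Normalized counts per kilobase of transcript (log axis) for the 10 chaperone genes in order of their mean, with 1 point per sample. Levels run from 189 per kb for Hspa1a to 28592 per kb for Hspa8, and samples of the 3 lowest genes overlap.

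Between genotypes, 0 of the 10 genes reached an adjusted p under 0.05 with limma-trend, where 0.0132% of the 15151 genes tested did: Cyfip2 among the lower genes (0.0066%) and Gm6158 among the higher ones (0.0066%). Adjusted p values of the 10 lay between 0.95 and 1.0 by limma-trend, and none had an unadjusted p under 0.05, against 5.07% of all genes (2.71% lower, 2.36% higher in heterozygotes). Dnajb1 lay at that border, with an unadjusted p of 0.0501 in limma-trend, and between 0.0476 and 0.0495 with TMM rescaling, robust shrinkage, no filter or a pseudocount of 5. Its unadjusted limma p was 0.0503 with a mean of at least 50 or a pseudocount of 0.5, and 0.091 without the trend. All 10 passed the filter on low values, a mean of at least 10. The two-sided exact permutation test of 3 against 3 samples cannot go below p = 0.1. In bulk tissue, fewer cells of a type and less RNA per cell cannot be told apart.

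Hspa1b had the largest spread between samples of the 10 genes, with a residual SD of 0.24 on the log2 scale, followed by Hspb1 at 0.21 and Hspa1a at 0.15. Hspa1a was at 510, 637 and 558 normalized counts in wild-type samples 1, 2 and 3, and at 497, 561 and 600 in heterozygous samples 1, 2 and 3. Hspa1b was at 445, 546 and 683 in wild type and at 454, 499 and 562 in heterozygotes. The genotypes overlapped for both genes, and both samples numbered 1 were the lowest of their genotype. The log2 fold change was -0.04 ± 0.10 (SE) for Hspa1a, with a 95% interval of 82.8% to 115% of wild type. For Hspa1b it was -0.13 ± 0.15 (SE), with an interval of 73.0% to 115%. Hspa1b turned to 0.029 without wild-type sample 3, and Hspa1a to 0.047 or 0.036 when wild-type sample 2 or heterozygous sample 1 was left out.

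Wild-type sample 3 stood apart in how the pair was split. Hspa1b made up 55.1% of the summed pair there, against 46.2% to 48.4% in the other 5 samples. Because most of the 2 transcripts is identical, the sum is the safer measure. Summed, the pair was at 955, 1183 and 1241 in wild type and at 951, 1060 and 1162 in heterozygotes. The summed pair differed by -0.09 ± 0.11 (log2, SE) at an adjusted p of 0.98 (limma-trend). Wild-type sample 3 was the shallowest library, with about 27.1 M implied reads, and whether depth bears on the split was not tested.

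Dnajb1 (ENSMUSG00000005483, chromosome 8, 83608193 to 83612653) was the only one of the 10 whose genotypes did not overlap, as was the case for 10.5% of all genes tested, 5.3% with heterozygotes lower and 5.15% with them higher. It was at 2191, 2237 and 2539 normalized counts in wild type and at 1986, 2151 and 2106 in heterozygotes. The highest heterozygous sample lay just under the lowest wild-type sample, a gap smaller than the SD of either group. Wild type averaged 2322 ± 189 and heterozygotes 2081 ± 85.4 (SD, n = 3 each). On the log2 scale heterozygotes differed by -0.16 ± 0.07 (SE), at an adjusted p of 0.95 in limma-trend and an exact permutation p of 0.1. The 95% interval ran from 80.6% to 100% of wild type, and the fold change was -0.09 without wild-type sample 3.

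The other inducible genes gave wide or near-zero intervals. Hspb1, which keeps aggregating proteins soluble, was at 178, 250 and 240 in wild type and at 184, 200 and 219 in heterozygotes. Both samples numbered 1 were again lowest, and the log2 fold change was -0.14 ± 0.14 (SE). Leaving out wild-type sample 2 gave -0.046, and leaving out wild-type sample 1 gave -0.29. Hspb1 had the fewest implied reads, 176 to 312 per sample, where counting alone gives a CV of up to 7.54%. Hsph1 ranged from 10015 to 10630 in wild type and from 9236 to 10210 in heterozygotes, at a log2 fold change of -0.09 ± 0.05 (SE). Hsp90aa1 was the inducible gene above wild type, at 35788, 29283 and 34112 in wild type and 34944, 32376 and 37615 in heterozygotes. Its log2 fold change was 0.08 ± 0.08 (SE), and -0.0011 without wild-type sample 2, the lowest sample.

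Among the constitutive genes, the cytosolic pair was nearly level between genotypes. Hspa8 ranged from 64751 to 69822 in wild type and from 63853 to 76104 in heterozygotes, differing by 0.018 on the log2 scale (95% interval -0.14 to 0.18). Hsp90ab1 ranged from 39304 to 42569 and from 39674 to 42122, differing by 0.013 on the log2 scale (95% interval -0.10 to 0.13). These intervals bound the difference and do not show equality. Of the ER pair, Hsp90b1 was at 99.8% of wild type with an interval of 90.1% to 111%.

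Hspa5 differed more between samples than the other constitutive genes. It was at 8334, 7444 and 7181 normalized counts in wild type and at 7775, 6157 and 6950 in heterozygotes. Heterozygous samples 2 and 3 were the lowest of the 6, and heterozygous sample 1 lay within the wild-type range. The log2 fold change was -0.14 ± 0.09 (SE), 90.7% of wild type with an interval of 79.3% to 104%. It was -0.06 without heterozygous sample 2 and -0.22 without heterozygous sample 1.

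**Figure D2:**
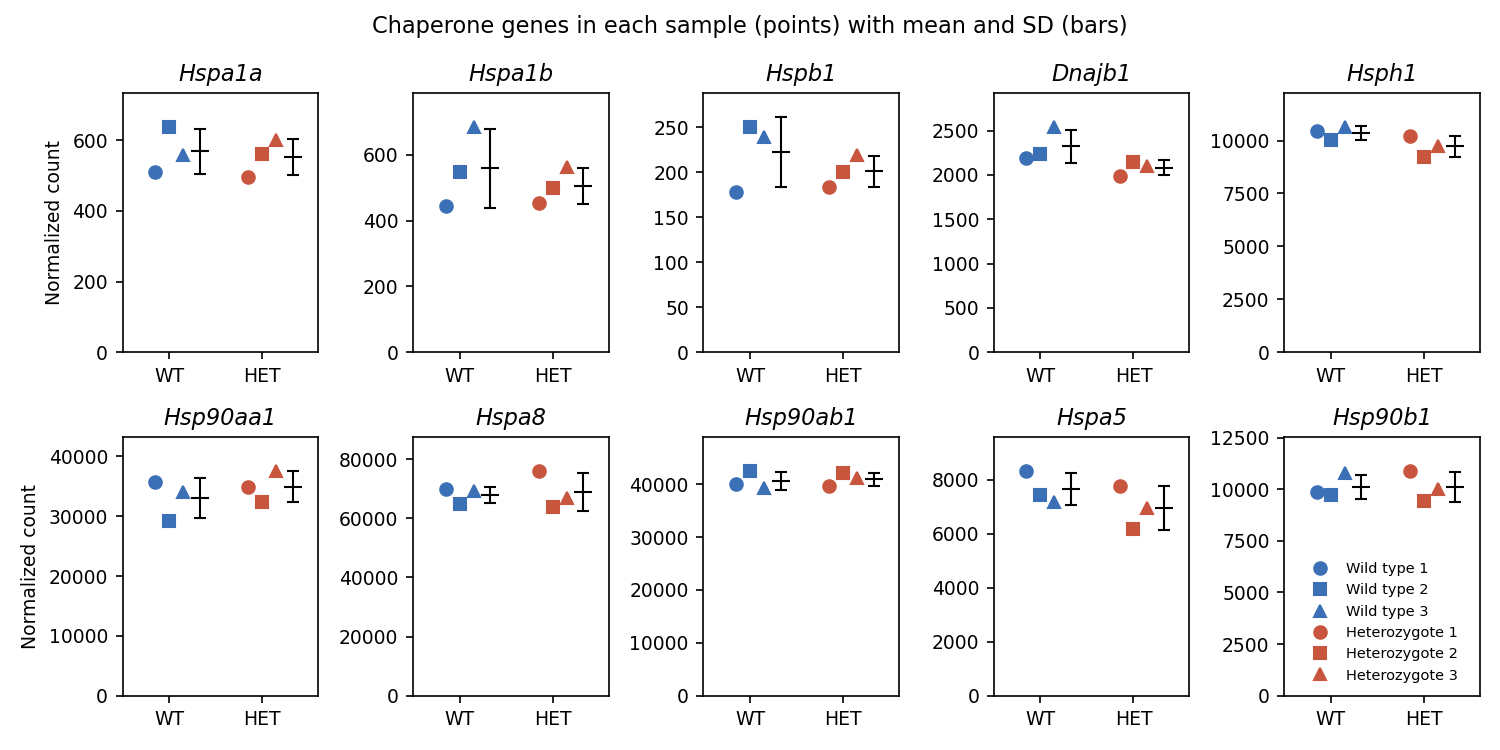
Normalized counts of the 10 chaperone genes in wild-type (WT) and heterozygous (HET) samples, 1 point per sample, with the mean and SD of each genotype as a bar. Only the Dnajb1 groups do not overlap, and both samples numbered 1 are the lowest of their genotype for Hspa1a, Hspa1b and Hspb1.

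**Figure D3:**
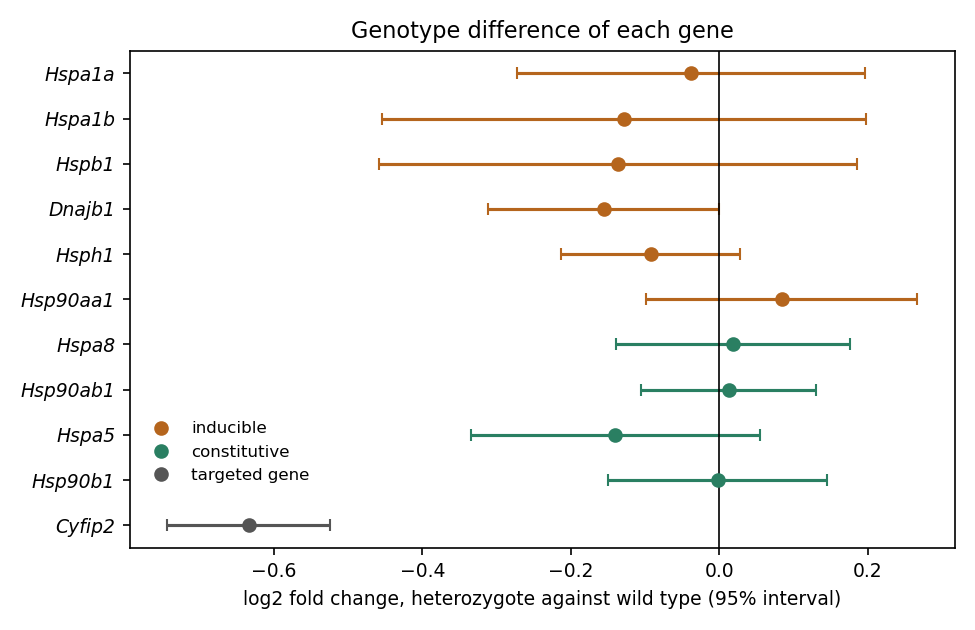
Log2 fold change of heterozygotes against wild type with its 95% interval from the moderated model, for the 10 chaperone genes and Cyfip2. The intervals of all 10 chaperone genes include 0 (that of Dnajb1 ends at 0.0001), whereas Cyfip2 is at -0.63.

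Inducible and constitutive genes were then set side by side, with no test because the 10 were chosen with earlier results known. Below wild type lay 5 of the 6 inducible genes (median log2 fold change -0.11) and 2 of the 4 constitutive genes (median 0.0052). Over all genes 49.2% lay below wild type and the median was 0.002. The inducible count was 4 of 6 without wild-type sample 3 or heterozygous sample 1. A per-sample score, the mean log2 value of a class minus its wild-type mean, showed how much of this came from single samples. The inducible score was -0.12, 0.01 and 0.11 in wild-type samples 1, 2 and 3 and -0.15, -0.10 and 0.01 in heterozygous samples 1, 2 and 3. The constitutive score was 0.03, -0.02 and -0.0037 in wild type and 0.07, -0.11 and -0.04 in heterozygotes. The inducible scores overlapped between genotypes, and wild-type sample 1 lay beside heterozygous samples 1 and 2.

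Inducible genes lay furthest below the constitutive ones in the samples numbered 1 of both genotypes. Inducible minus constitutive, relative to wild type, was -0.15 in wild-type sample 1 and -0.21 in heterozygous sample 1, and between 0.01 and 0.11 in the other 4 samples. Between genotypes it differed by -0.05, with SDs of 0.13 and 0.14, and by 0.031 without heterozygous sample 1. With Hsp90aa1 counted as constitutive the difference was -0.10. The labels do not say that a number marks a shared litter, day or batch.

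Immediate early genes, which rise within minutes of neuronal activity or handling, also separated wild-type sample 1. Their mean score was -0.56, 0.15 and 0.41 in wild-type samples 1, 2 and 3 and -0.17, 0.31 and -0.18 in heterozygotes. Wild-type sample 1 was lowest for 11 of 12 genes of that list and wild-type sample 3 highest for 7. Arc, a regulator of synaptic strength, was at 15316, 26798 and 30590 normalized counts in wild type and at 15493, 21770 and 15404 in heterozygotes. Of the 12 genes 7 lay below wild type (median log2 fold change -0.03), and Jun had a log2 fold change of 0.22 ± 0.16 (SE). Hspa1b, alone of the 6 inducible genes, shared both its lowest and its highest sample with this list. The sum of Hspa1a and Hspa1b was highest in wild-type sample 3 too, but lowest in heterozygous sample 1. Of 8 glucocorticoid response genes 6 lay below wild type. Plin4 was at -0.37 ± 0.20 and Per1 at -0.13 ± 0.12 (log2 fold change ± SE). The part of activity or handling in the inducible scores was not tested.

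**Figure D4:**
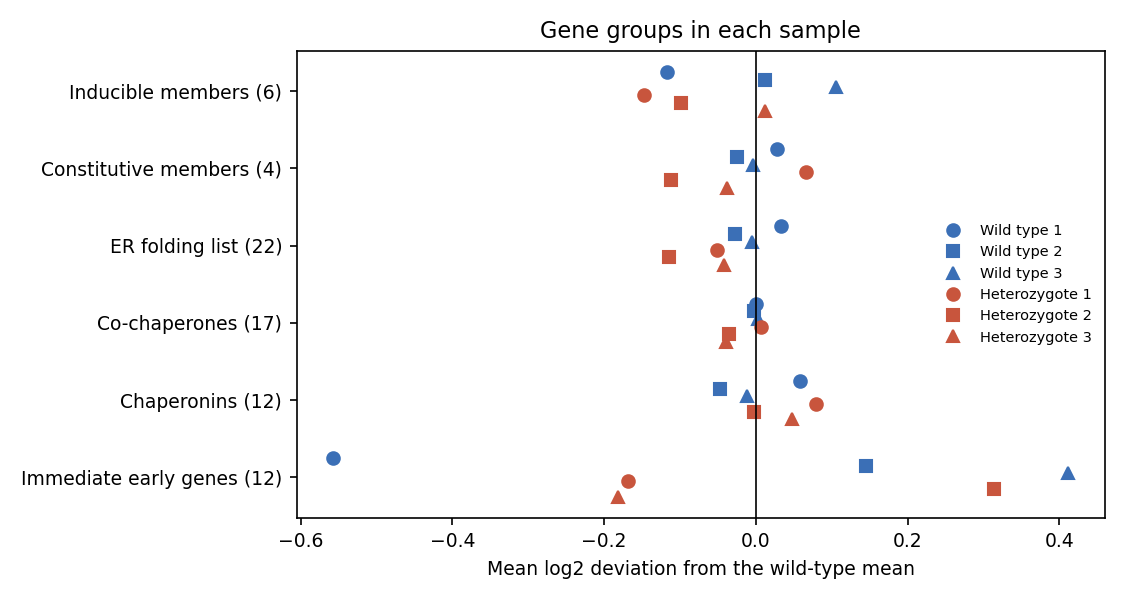
Mean log2 deviation from the wild-type mean in each sample for 6 gene groups, with the number of genes in parentheses. Wild-type sample 1 is at -0.56 and wild-type sample 3 at 0.41 for immediate early genes. The 3 heterozygous samples lie below the 3 wild-type samples for the ER folding list, as they did for the other small heat shock protein genes, not drawn.

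The inducible genes also had the larger spread between samples of 1 genotype. The residual SD, the spread within genotype on the log2 scale, had a median of 0.14 for inducible and 0.10 for constitutive genes. Lower counts scatter more, so each gene was placed among the 1000 tested genes nearest in level. Hspa1b was at the 95.2 percentile of such genes, Hspa5 at 93.8 and Hsp90aa1 at 90.3, whereas Hsp90ab1 was at 30.2 and Hsph1 at 36.2. Against genes of their own level, the class medians were close, at 76.1 and 75.4. The CV was smaller in heterozygotes for 5 of 6 inducible genes and 1 of 4 constitutive ones, beside 53.0% of all genes. For Hspa1b the CV was 21.5% in wild type and 10.8% in heterozygotes.

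The wider chaperone network was described through 7 further lists with 82 tested genes, none of which reached an adjusted p under 0.05 in limma-trend, while 3 of 82 had an unadjusted p under 0.05, beside 5.07% of all genes. Together 44 lay below and 38 above wild type (median log2 fold change -0.0082, and -0.027 to -0.0044 with each sample left out in turn). Genotypes did not overlap for 5 genes, 6.1% of the 82 beside 10.5% of all genes. Heat shock factors were close to wild type: Hsf1, the master regulator of heat shock genes, was at -0.03 ± 0.06, Hsf2 at 0.0037 ± 0.08 and Hsf4 at 0.02 ± 0.10 (log2 fold change ± SE). Hsbp1, which binds and restrains HSF1, was at 0.08 ± 0.07.

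Most of the ER folding list lay on the same side as Hspa5. Of its 22 genes 18 were below wild type, and the median log2 fold change was -0.07 beside 0.002 for all genes. Genotypes did not overlap, with heterozygotes lower, for 3 of 22, beside 5.3% of all genes. These were Pdia4, a protein disulfide isomerase, at 1158, 1079 and 1163 in wild type and 1012, 959 and 1035 in heterozygotes, Calr, the lectin chaperone calreticulin, and Dnajc3, a co-chaperone of BiP. Calr was at -0.07 ± 0.05 and Dnajc3 at -0.11 ± 0.06 (log2 fold change ± SE). Pdia4 was at -0.18 ± 0.07 (SE), unadjusted p 0.024 and adjusted p 0.94 in limma-trend. Sdf2l1, an ER stress-induced partner of BiP, was at -0.27 ± 0.12 (SE), with its groups overlapping. The mean score was 0.03, -0.03 and -0.0054 in wild type and -0.05, -0.11 and -0.04 in heterozygotes, so the genotypes did not overlap in it. This was not particular to the ER folding list. The score of the other small heat shock protein genes was 0.0191, -0.0088 and -0.0103 in wild type. In heterozygotes it was -0.0845, -0.2636 and -0.115, also without overlap. Heterozygous sample 2 was lowest for 10 of the 22 genes, as it was for Hspa5 and Hsp90b1. The count was 17 to 20 of 22 with each sample left out in turn, and the median -0.079 to -0.043. Of the genes for the 3 stress sensors of the ER membrane, Atf6 was at -0.10 and Ern1, which encodes IRE1, at -0.15 on the log2 scale, while Eif2ak3, which encodes the kinase PERK, was at 0.11. None of the 3 passed the test. The downstream transcription factor genes Xbp1, Atf4 and Ddit3 were at -0.02, -0.03 and -0.01 (log2 fold change).

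Of 12 chaperonins and mitochondrial chaperones 10 lay above wild type, at a median of 0.05. Cct8 and Cct4, subunits of the cytosolic TRiC chaperonin that folds actin and tubulin, were at 0.08 ± 0.06 and 0.07 ± 0.06 (log2 fold change ± SE). The number below wild type, 2 of 12, was 5 without heterozygous sample 1. HSP90 and HSP70 co-chaperones were balanced, 10 below and 7 above, at a median of -0.011 that ranged from -0.03 to -0.0005 with each sample left out in turn. Stip1, which hands client proteins from HSP70 to HSP90, averaged 4945 ± 196 in wild type and 4541 ± 175 in heterozygotes (SD, n = 3 each). Its unadjusted p was 0.049 and its adjusted p 0.95 by limma-trend. Unc45a, a myosin chaperone, was at -0.17 ± 0.08 (log2 fold change ± SE).

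**Figure D5:**
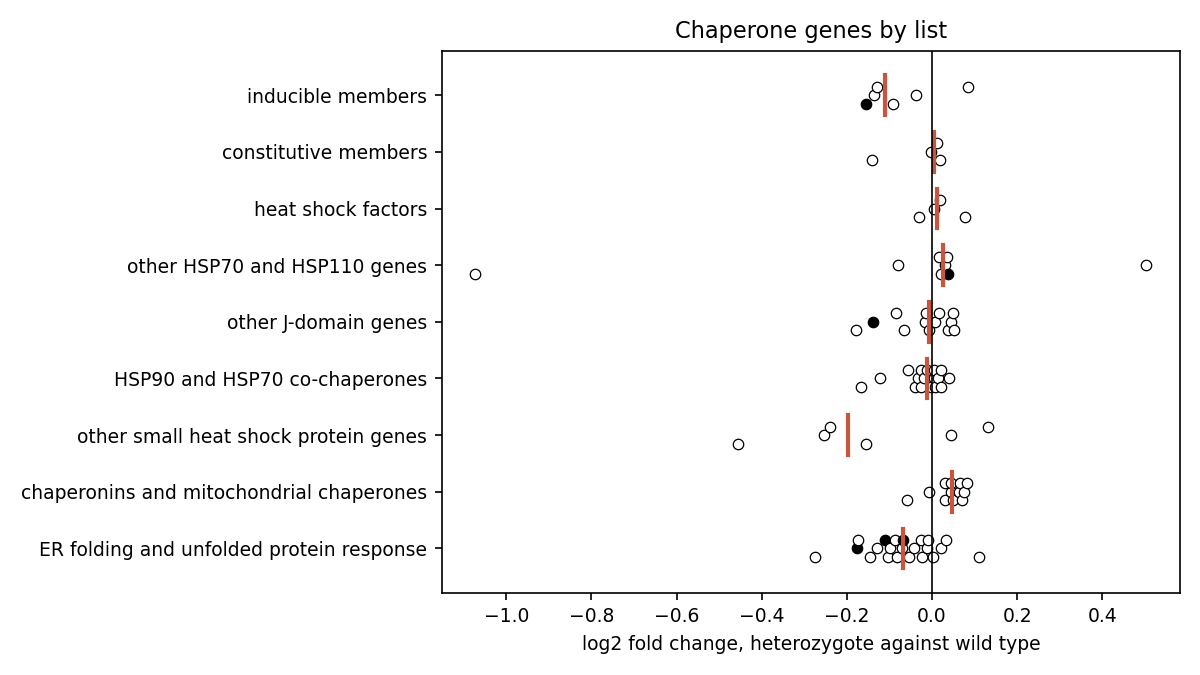
Log2 fold change of heterozygotes against wild type for the 10 chaperone genes and 7 further lists, 1 circle per gene, filled where the genotypes do not overlap, with the median of each list as a vertical line. The ER folding list has 18 of 22 genes below 0 and the chaperonin list 10 of 12 above 0.

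In the remaining lists single genes scattered widely. Below wild type lay 2 of 8 other HSP70 and HSP110 genes (median log2 fold change 0.03), 7 of 13 other J-domain genes (median -0.006) and 4 of 6 other small heat shock protein genes (median -0.20). These counts and medians depended on single samples. Without wild-type sample 2 the HSP70 and HSP110 count was 5 of 8 and its median -0.03, and without heterozygous sample 1 they were 4 of 8 and -0.006. The J-domain count was 5 to 9 of 13 and its median -0.03 to 0.016 with each sample left out in turn. The small heat shock protein median was -0.08 without heterozygous sample 2, -0.10 without wild-type sample 3, and -0.055 over genes with a mean of at least 50. Hspa4l, an HSP110 family gene, was at 407, 166 and 361 normalized counts in wild type and at 74.4, 108 and 322 in heterozygotes, a range of 5.5-fold that was not split by genotype. The log2 difference was -1.07 ± 0.49 (SE), at an adjusted p of 0.95 in limma-trend. Hspa1l, which shares sequence with the HSP70 pair, was at only 8.43 to 21.1 normalized counts. Hspa2, the HSP70 best known from testis, did not overlap between genotypes but differed by only 0.038 on the log2 scale. Dnaja4, a J-domain gene, was at 1971, 1793 and 1917 in wild type and at 1611, 1759 and 1792 in heterozygotes, without overlap and at an adjusted p of 0.95 in limma-trend. Dnajb5 was at -0.18 ± 0.10 (log2 fold change ± SE). Cryab, a small heat shock protein gene strongly expressed in oligodendrocytes, was highest in wild-type sample 2, at 2356, and lay between 1682 and 2020 elsewhere. All 8 oligodendrocyte markers were highest in that sample, where their summed level was 177534, the top of a wild-type range from 126861, beside 123484 to 132856 in heterozygotes. The part of myelin in the Cryab values was not tested. Hspb3 was at -0.24 ± 0.17 (log2 fold change ± SE).

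Neuron markers lay far above choroid plexus markers, which summed to 80.7 to 283 normalized counts per sample. That contrast does not tell prefrontal cortex from other brain regions. Striatal markers summed to 7718 to 8815 in wild type and to 6724 to 7283 in heterozygotes. Neuron markers summed to 359651 to 364495 in wild type and to 337693 to 348924 in heterozygotes, without overlap. The mean log2 score of the neuron markers did overlap between genotypes. No marker found in the table from the 9 lists was at 0 in every sample. Blood markers summed to 5780 to 7559 in wild type and 6295 to 6857 in heterozygotes. Above wild type lay 5 of 10 neuron, 6 of 8 astrocyte, 0 of 8 oligodendrocyte, 5 of 8 microglia, 9 of 10 endothelial and pericyte, 9 of 10 meningeal and smooth muscle, 2 of 4 choroid plexus, 3 of 5 blood and 2 of 7 striatal markers. Their part in the chaperone values was not tested. Totals per sample were 36.4 to 37.1 M normalized counts, and the implied depth was 27.1 to 47.9 M reads.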

How the data were processed

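Libraries were made with a stranded mRNA kit, per the labels' protocols. The submitters' processing notes list Salmon 0.11.2, R 3.6.0, DESeq2 1.19.11 and GRCm38 but no roles. Values were deposited as a scaled signal per gene (normalized counts), not raw counts, so no count model was used. Not given in the sources used here were the annotation release, the gene filter and the scaling factors.

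Symbols came from a reference table of gene names (18122 of 18160 identifiers matched) and positions from GENCODE M21 on GRCm38. log2(value + 1) of 15151 genes with a mean of at least 10 was fitted with limma-trend (limma 3.58.1, R 4.3.3), genotype as the only term. Benjamini-Hochberg adjustment ran over all of them, and calls were made under 0.05. Fold changes on this scale understate changes of low genes. Shared sequence was counted as 31-base stretches of 1 GENCODE transcript per gene, the principal or else longest coding one, which also gave the lengths. Implied reads are values divided by the most common low value of each sample (0.77 to 1.36 normalized counts), taken as that of a single read. The fit was tested on simulated data.

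The 10 genes and the lists were chosen with earlier results of these data known. Named besides them were Cyfip2, Hsf1, Hsf2, Hsf4 and, per chaperone, immediate early and glucocorticoid list, the 2 genes with the smallest p. Calr, Dnajc3, Hspa2, Atf6, Ern1, Eif2ak3, Xbp1, Atf4, Ddit3, Gm6158 and the pseudogenes were named after their values were seen. Alternatives were TMM rescaling, no trend, robust shrinkage, other filters and pseudocounts, an adjusted p of 0.1, blocking on sample number, other class assignments and leaving out each sample.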

Additional observations from a re-analysis of the deposited data

How the results depend on the processing

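None of the 10 genes passed the threshold under any alternative that was run. Their adjusted p values by limma lay between 0.49 and 1.0 there. Of the 8 settings that kept all samples, only TMM rescaling and the other pseudocounts could move a fold change. The trend, the shrinkage, the filters and the balanced block leave it as it is by construction. Under TMM rescaling and the other pseudocounts no fold change of the 10 genes changed sign, and the largest shift was 0.0023 on the log2 scale. With each sample left out in turn, the log2 fold change ranged from -0.11 to 0.047 for Hspa1a, -0.28 to 0.029 for Hspa1b, -0.0011 to 0.14 for Hsp90aa1, -0.055 to 0.072 for Hspa8, -0.011 to 0.047 for Hsp90ab1 and -0.057 to 0.047 for Hsp90b1. Dnajb1, Hspb1, Hsph1 and Hspa5 kept their sign in those fits. The median of the constitutive genes ranged from -0.056 (without heterozygous sample 1) to 0.02 and that of the inducible genes from -0.15 to -0.06. The number of all genes past the threshold, 2 in the reported fit, was 1 without the trend, 1 with a mean of at least 50, and 1 to 4 with a sample left out (4 without wild-type sample 1 or heterozygous sample 3, 1 without heterozygous sample 1).

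With the sample number as a replicate block, 2 genes passed, and the smallest adjusted p of the 10 genes was 0.49 (Dnajb1, limma-trend). Unadjusted limma-trend p-values in that fit were 0.022 for Dnajb1, 0.023 for Hspa5 and 0.043 for Hsph1. The exact permutation test of 3 against 3, which cannot go below 0.1, ignores the blocks. Permuting only within blocks would allow fewer arrangements, so its smallest p would be higher still. With samples left out, unadjusted limma-trend p-values under 0.05 were those of Dnajb1 without wild-type sample 1 or 2 (0.029 and 0.044), Hspb1 without wild-type sample 1 (0.045) and Hspa5 without heterozygous sample 1 (0.023). The share of all genes under 0.05 was counted neither for the block fit nor for these fits. Whether the 10 genes stand out there was therefore not tested. Deviations of same-numbered samples correlated at 0.13, 0.12 and -0.0052 across genes, so the numbers were not taken as pairs, although samples 1 and 2 of each genotype correlated best with their own number. The depth is implied, not known, and limits Hspb1 most.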
